A study of Mus musculus with 8 samples.

Results

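The genes described here are 10 genes of contraction and of mural cells, the smooth muscle cells and pericytes that wrap blood vessels. They are Acta2, Myl9, Tpm2, Myh11, Cnn1, Tagln, Des, Pdgfrb, Rgs5 and Akap12. They were chosen by gene name, and all 10 were present in both deposited tables, out of 31406 genes in the table that compares the 2 ligand treatments. The RNA came from primary cultures of wild type mouse brain cells labelled as microglia, grown from the striatum of C57/BL6 pups for 15 days and then exposed to lipopolysaccharide (LPS) plus interferon-γ (IFN-γ), the activating stimulus, over 48 h. All 8 libraries therefore carried the same activation, and all 8 received SCH 58261, an antagonist of the adenosine A2A receptor. In the A2A antagonist group (n = 4) SCH 58261 was the only ligand. In the dual group (n = 4) the A3 receptor agonist 2-Cl-IB-MECA was given as well. Per the paper each ligand was used at 200 nM, and in both groups additions were made at 24, 32 and 40 h of activation. Groups were read from the sample titles, because the treatment field of the same labels places the agonist with the other group, so each direction below rests on the titles. The labels do not tie the libraries to separate litters or cultures, and the p-values measure only the spread between these libraries.

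Smooth muscle contracts when myosin II slides along actin filaments. The regulatory light chain of myosin switches the motor on, tropomyosin lies along the actin filament, and calponin and transgelin bind and brace it. Serum response factor (SRF), together with myocardin and its relatives, drives many of these genes through a DNA element called the CArG box. Pericytes of brain capillaries are known by the receptor Pdgfrb, which answers PDGF-B from endothelial cells, and by the signalling brake Rgs5, and they usually express little of the full smooth muscle programme. Several of the genes are also used by fibroblasts, myofibroblasts and astrocytes, and they are not in use as microglia markers.

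The libraries held between 32630602 and 45878639 counts assigned to genes, and between 26155 and 26809 genes had at least 1 count. Mitochondrial genes took between 1.58% and 1.80% of the counts, and no pair of replicates agreed within sampling noise. The 10 genes together took between 0.0712% and 0.0858% of the counts. Markers of several cell types were present, although the cultures are labelled as microglia and the paper reports a high purity by CD11b labelling. The summed level of 8 astrocyte markers was between 5946 and 6457 counts scaled to 1000000 per library (CPM), that of 12 microglia markers between 1305 and 1484 CPM, that of 11 meningeal fibroblast markers between 3513 and 4477 CPM, and that of 7 endothelial markers between 51.3 and 65.3 CPM. These sums are not scaled to gene length, so they do not rank the cell types. Fewer cells of a type and less RNA per cell cannot be told apart in bulk samples such as these.

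The 10 genes spanned a wide range of levels, from Akap12 and Acta2, which were abundant, to Des, which was close to 0. Levels of different genes were compared in FPKM (fragments scaled to gene length and to library depth), as deposited, over all 8 libraries. Akap12 had a mean of 75.4 FPKM, Acta2 49.8 FPKM and Myl9 35.0 FPKM. Cnn1 with 14.9 FPKM and Pdgfrb with 14.3 FPKM followed, and these were neighbours whose ranges over the libraries overlapped. Tpm2 (6.15 FPKM) and Tagln (1.83 FPKM) stood lower. The lowest were Rgs5 (0.157 FPKM) and Myh11 (0.0599 FPKM), whose ranges overlapped, and Des (0.0185 FPKM). All other neighbours in this order were separated in every library. The set thus held genes that were well detected, from Akap12 down to Tagln, and Myh11, Des and Rgs5, which were near the limit of detection. The levels alone do not show which cells the RNA came from.

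**Figure D1:**
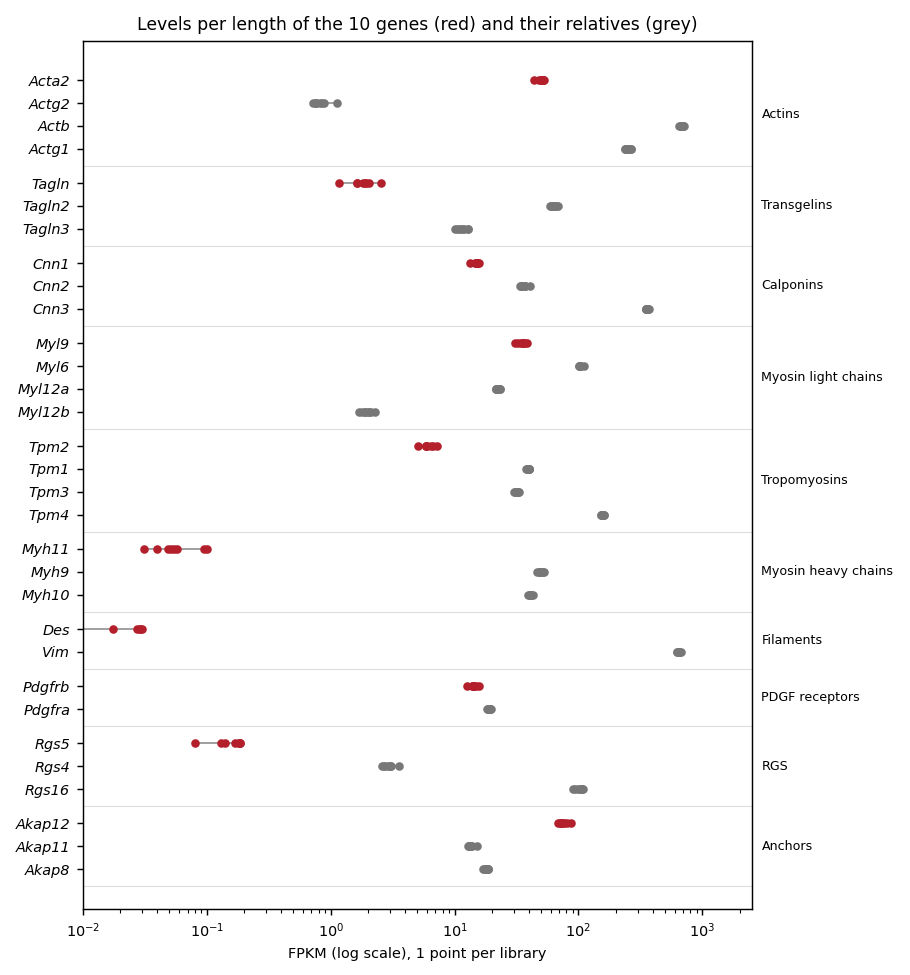
Levels in FPKM (log scale), with 1 point per library, of the 10 genes (red) and of genes from the same families (grey). Acta2, Tagln, Cnn1, Tpm2, Myh11 and Des lay below their more abundant non-muscle relatives in each of the 8 libraries, and the 1 library of Des at 0 cannot be drawn on this scale.

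Acta2 (ENSMUSG00000035783, chr19:34241090-34255336, minus strand, mm10) encodes smooth muscle α-actin, the actin of vascular smooth muscle and of myofibroblasts. Its level, in CPM scaled by the trimmed mean of M values (TMM), was 92.8, 90.2, 78.8 and 88.0 in replicates 1 to 4 of the A2A antagonist group. In the dual group it was 92.6, 94.9, 90.9 and 86.6 CPM. The groups overlapped, and A2A antagonist replicate 3 was the lowest library. Means of 87.4 ± 6.11 CPM in the A2A antagonist group and 91.2 ± 3.53 CPM in the dual group resulted (SD, n = 4 each). The difference between the groups, dual minus A2A antagonist here and throughout, was 0.061 on the log2 scale (SE 0.047, 95% interval from -0.038 to 0.16), which did not pass edgeR's quasi-likelihood test (Benjamini-Hochberg adjusted p = 0.635). Non-muscle actins were far more abundant. Actb, the cytoplasmic β-actin of every cell, was 13.7 ± 0.859 times as high as Acta2 in FPKM (SD, n = 8), and the cytoplasmic γ-actin Actg1 was 5.04 ± 0.222 times as high. Acta2 in turn was 60.4 ± 7.60 times as high as Actg2, the actin of gut and other visceral smooth muscle.

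Myl9 (ENSMUSG00000067818, chr2:156775420-156781658, plus strand) encodes the regulatory light chain of myosin II that smooth muscle uses. Its levels were 40.7, 43.0, 36.3 and 41.8 CPM in the A2A antagonist group and 45.4, 41.6, 41.2 and 38.1 CPM in the dual group. The ranges overlapped widely, and replicate 1 of the dual group was the highest. The difference was 0.037 on the log2 scale (SE 0.057, 95% interval from -0.083 to 0.16, edgeR with Benjamini-Hochberg adjusted p = 0.845). Of the regulatory light chains of the same kind, Myl12a lay below Myl9, which was 1.57 ± 0.124 times as high (SD, n = 8), whereas Myl6, the essential light chain shared by smooth muscle and non-muscle myosin, was 2.96 ± 0.221 times as high as Myl9. In FPKM, Myl9 was thus the only gene of the contractile set that exceeded its measured non-muscle relatives, Myl12a and Myl12b, in every library. The order against Myl12a rests on the gene lengths used, 1162 bases for Myl9 and 3360 for Myl12a. Without scaling to length Myl12a was the higher, at 77.3 and 73.9 CPM in the A2A antagonist and dual groups, against 40.4 and 41.6 CPM for Myl9.

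Promoters of these genes show what the SRF element looks like in the genome. The 300 bases from 250 before to 50 after the start were available for 6 of the 9 genes that were looked up, from RefSeq on GRCm38.p6, the same assembly as mm10. Acta2 and Myl9 are shown because they had the highest level among the contractile genes of the set, and Des because it is the least abundant gene of the set. Capitals mark every match, on either strand, to the CArG box or to a sequence with 1 departure from it.
Acta2, chr19:34255324-34255623, minus strand: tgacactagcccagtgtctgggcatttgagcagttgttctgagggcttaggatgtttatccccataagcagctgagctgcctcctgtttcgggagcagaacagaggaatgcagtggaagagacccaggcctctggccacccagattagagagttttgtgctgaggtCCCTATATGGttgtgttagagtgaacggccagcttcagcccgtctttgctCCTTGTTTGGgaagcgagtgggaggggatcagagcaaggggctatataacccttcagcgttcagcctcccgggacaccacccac
Myl9, chr2:156775214-156775513, plus strand: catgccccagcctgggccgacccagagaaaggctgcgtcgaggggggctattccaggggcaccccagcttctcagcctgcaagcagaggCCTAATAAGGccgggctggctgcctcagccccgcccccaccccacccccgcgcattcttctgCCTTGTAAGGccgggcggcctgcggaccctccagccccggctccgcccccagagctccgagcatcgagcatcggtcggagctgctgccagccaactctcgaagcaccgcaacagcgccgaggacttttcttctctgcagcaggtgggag
Des, chr1:75360042-75360341, plus strand: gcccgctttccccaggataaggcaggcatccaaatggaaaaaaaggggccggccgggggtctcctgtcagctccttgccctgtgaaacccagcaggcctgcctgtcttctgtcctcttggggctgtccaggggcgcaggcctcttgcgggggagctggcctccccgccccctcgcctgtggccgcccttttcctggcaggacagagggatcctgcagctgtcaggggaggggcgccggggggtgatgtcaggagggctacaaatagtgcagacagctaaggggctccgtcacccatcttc
The Myl9 window held CCTAATAAGG, an exact match, with its first base at -161 from the start, and CCTTGTAAGG, with 1 departure, at -99. In the Acta2 window, CCCTATATGG began at -84 and CCTTGTTTGG at -34 from the start, each with 1 departure. Both distances count from the RefSeq start, and the start of Acta2 in the deposited coordinates, 34255336, lies downstream of it. The windows of Des, Cnn1, Tpm2 and Rgs5 held no such letters. Among 32851 promoters of the same length, 1.63% held an exact CArG box and 21.1% held one with up to 1 departure, so that a match with a departure was common. The letters TATAAA, on either strand, were in none of the 6 windows and in 13.6% of all promoters. Only these exact letters were searched, and the similar letters TATATAA stand in the Acta2 window. These matches describe letters and were not tested as binding sites.

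Tpm2 (ENSMUSG00000028464, chr4:43514711-43523765, minus strand) encodes β-tropomyosin, which lies along actin in smooth and slow skeletal muscle. It was measured at 15.0, 19.8, 18.9 and 17.3 CPM in the A2A antagonist group and at 21.1, 17.4, 17.5 and 17.3 CPM in the dual group. Of the dual libraries, 3 were nearly equal and replicate 1 stood above them, while replicate 1 of the A2A antagonist group was the lowest of all 8. The difference was 0.041 on the log2 scale (SE 0.082, 95% interval from -0.13 to 0.21, edgeR with Benjamini-Hochberg adjusted p = 0.883). The other tropomyosins were each higher than Tpm2 in FPKM. Tpm1 was 6.47 ± 0.688 times, Tpm3 5.21 ± 0.464 times and Tpm4, the tropomyosin of many non-muscle cells, 25.7 ± 2.90 times as high (SD, n = 8).

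Myh11 (ENSMUSG00000018830, chr16:14194535-14291372, minus strand) encodes smooth muscle myosin heavy chain, the most specific marker of differentiated smooth muscle. It was counted 30, 18, 10 and 17 times in the A2A antagonist libraries and 10, 16, 20 and 32 times in the dual libraries. Both groups ran over the same range, with CPM means of 0.447 ± 0.231 and 0.471 ± 0.177 (SD, n = 4 each). The difference of 0.12 on the log2 scale had an SE of 0.36 and a 95% interval from -0.65 to 0.88 (edgeR with Benjamini-Hochberg adjusted p = 0.933), so that changes of moderate size in either direction were not detectable at this depth. The non-muscle heavy chains gave a different picture of level. Myh9 was 945 ± 348 times and Myh10 785 ± 292 times as high as Myh11 (SD, n = 8), and the few counts of Myh11 enter both ratios.

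Actin-binding proteins of smooth muscle come next. Cnn1 (ENSMUSG00000001349, chr9:22099216-22109630, plus strand) encodes calponin 1, which restrains the actomyosin motor. It was at 42.1, 43.6, 40.8 and 41.5 CPM in the A2A antagonist group and at 41.0, 43.0, 40.0 and 36.6 CPM in the dual group. It was the only one of the tested genes with a negative difference, -0.066 on the log2 scale (SE 0.048, 95% interval from -0.17 to 0.036), and the groups overlapped (edgeR with Benjamini-Hochberg adjusted p = 0.615). Replicate 4 of the dual group was the lowest library. The other calponins, which non-muscle cells use, were higher, Cnn2 by 2.44 ± 0.176 times and Cnn3 by 24.1 ± 1.56 times (SD, n = 8).

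Tagln (ENSMUSG00000032085, chr9:45929619-45936058, minus strand) encodes transgelin, also called SM22α, an early marker of smooth muscle. Its counts were 158, 149, 137 and 107 in the A2A antagonist libraries and 123, 194, 177 and 162 in the dual libraries. As CPM these were 4.10, 3.28, 3.28 and 2.36 against 3.77, 5.10, 3.86 and 3.65. The dual libraries tended to lie higher, but replicate 1 of the A2A antagonist group was above 3 of them. The means were 3.25 ± 0.711 CPM and 4.09 ± 0.674 CPM (SD, n = 4 each), and the difference was 0.34 on the log2 scale (SE 0.15, 95% interval from 0.014 to 0.66). It reached an unadjusted p of 0.0416 but not the threshold after adjustment over all genes (edgeR with Benjamini-Hochberg adjusted p = 0.362).

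The level of Tagln is uncertain for a reason that lies in the annotation. Of its 1988 exonic bases, 1241 (62.4%) are also exonic in Gm48529, an antisense gene on the opposite strand (ENSMUSG00000111521, chr9:45930112-45933738), and 108 (5.43%) in Pcsk7, a proprotein convertase gene, also on the opposite strand. Both were counted as genes in the same table. Only 639 bases (32.1%) belong to Tagln alone. If reads on shared bases were not assigned, the Tagln counts spread over those bases would correspond to 5.70 FPKM rather than 1.83 FPKM as a mean of the 8 libraries. Whether counting used the strand is not given in the sources used here, so reads of the gene and of its antisense partner cannot be told apart. Gm48529 itself was counted 178, 193, 72 and 68 times in the A2A antagonist libraries and 146, 154, 201 and 225 times in the dual libraries. Its difference was 0.58 on the log2 scale (SE 0.25, edgeR with Benjamini-Hochberg adjusted p = 0.337), and its part in the Tagln value was not tested. Tagln was 28.2 ± 6.11 times lower than Acta2 in FPKM and 36.3 ± 10.1 times lower than its non-muscle relative Tagln2 (SD, n = 8), and these ratios carry the same uncertainty. The other 9 genes shared at most 5.28% of their 31-base words with any other transcript, and that value belonged to Des.

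Des (ENSMUSG00000026208, chr1:75360329-75368579, plus strand) encodes desmin, the intermediate filament protein of muscle and of many pericytes. It was counted 4, 3, 0 and 5 times in the A2A antagonist libraries and 1, 1, 5 and 5 times in the dual libraries. No library rose above 5 counts, and the library at 0 allows up to 3 counts by counting error alone. The gene did not pass the low-count filter and was not tested. Vim, the intermediate filament gene of mesenchymal and glial cells, stood at 645 ± 12.7 FPKM and 644 ± 18.4 FPKM in the A2A antagonist and dual groups (SD, n = 4 each).

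**Figure D2:**
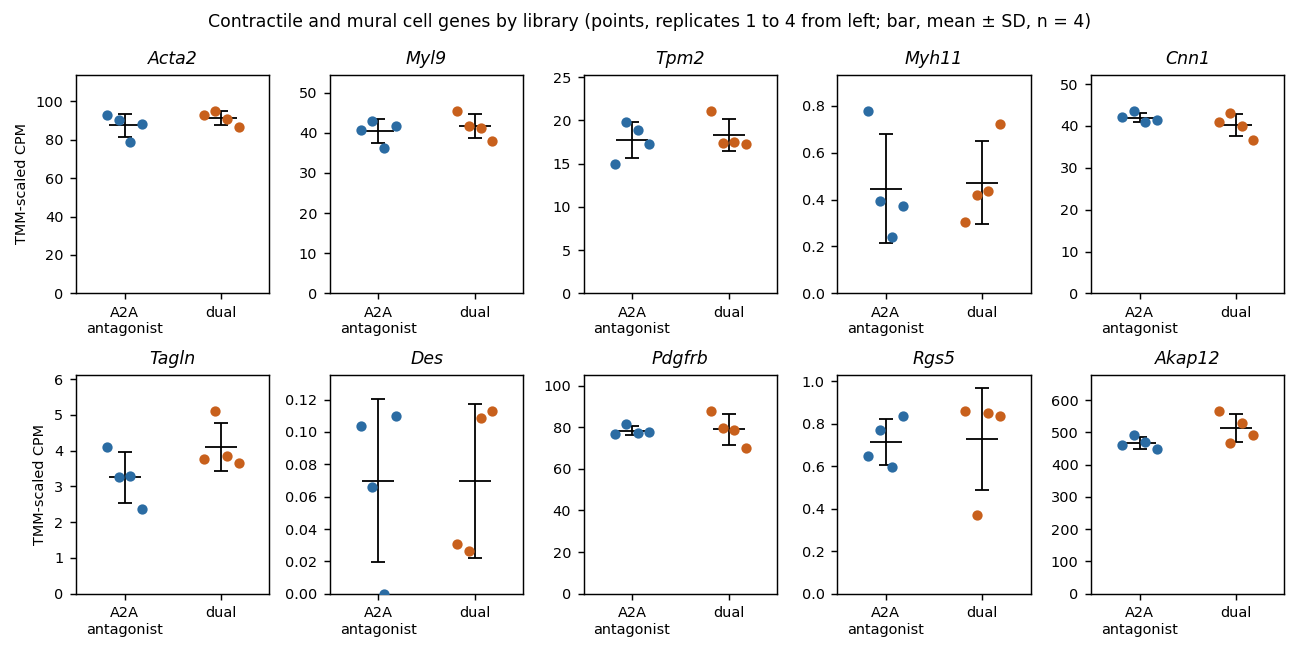
TMM-scaled CPM of each of the 10 genes in the 4 A2A antagonist and the 4 dual libraries, replicates 1 to 4 from left, with the mean and SD as bars and each axis starting at 0. The groups overlap for every gene, and the dual replicate 1 is the highest point for Myl9, Tpm2, Pdgfrb, Rgs5 and Akap12.

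Pdgfrb and Rgs5 are the classical pair of pericyte markers, and they were far apart in level. Pdgfrb (ENSMUSG00000024620, chr18:61045150-61085061, plus strand), the receptor that recruits pericytes and that fibroblasts also carry, was at 76.6, 81.5, 77.5 and 77.7 CPM in the A2A antagonist group. It was at 87.7, 79.8, 78.5 and 69.9 CPM in the dual group. The dual group held both the highest and the lowest library, and its SD of 7.30 CPM was larger than that of 2.15 CPM in the A2A antagonist group. The difference was 0.0097 on the log2 scale (SE 0.052, 95% interval from -0.10 to 0.12, edgeR with Benjamini-Hochberg adjusted p = 0.965). The sister receptor Pdgfra, typical of fibroblasts and oligodendrocyte precursors, was 1.34 ± 0.0811 times as high (SD, n = 8).

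Rgs5 (ENSMUSG00000026678, chr1:169655501-169695813, plus strand) encodes a regulator that shortens G protein signalling and is among the strongest marker genes of brain pericytes. It was counted 25, 35, 25 and 38 times in the A2A antagonist libraries and 28, 14, 39 and 37 times in the dual libraries. Replicate 2 of the dual group was low, at 0.368 CPM against 0.858, 0.850 and 0.835 CPM in the others of that group. The difference was 0.029 on the log2 scale (SE 0.27, 95% interval from -0.54 to 0.60, edgeR with Benjamini-Hochberg adjusted p = 0.981). Pdgfrb was 97.7 ± 35.4 times as high as Rgs5 in FPKM, and Rgs16, a relative that responds to inflammatory signals, was 699 ± 265 times as high as Rgs5 (SD, n = 8).

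Akap12 (ENSMUSG00000038587, chr10:4266380-4359470, plus strand) encodes a scaffold, also called gravin, that anchors protein kinase A and protein kinase C near the membrane and is expressed by pericytes, fibroblasts, meningeal cells and astrocytes. It was the most abundant of the 10, with 17797 to 24236 counts per library. Its level was 461, 493, 470 and 448 CPM in the A2A antagonist group and 565, 468, 528 and 493 CPM in the dual group. The highest 2 libraries were dual replicates 1 and 3, and dual replicate 2 lay within the A2A antagonist range. The means were 468 ± 18.7 CPM and 514 ± 42.3 CPM (SD, n = 4 each), a difference of 0.13 on the log2 scale (SE 0.047, 95% interval from 0.035 to 0.23). The unadjusted p was 0.0108 and the Benjamini-Hochberg adjusted p of edgeR's quasi-likelihood test was 0.220, with a range from 0.0697 to 0.497 over the alternatives tried. Without dual replicate 1 the difference was 0.084 on the log2 scale (edgeR with Benjamini-Hochberg adjusted p = 0.393). Counting error was small for this gene. In the dual group the coefficient of variation between libraries was 8.23%, against 0.697% from counting alone.

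**Figure D3:**
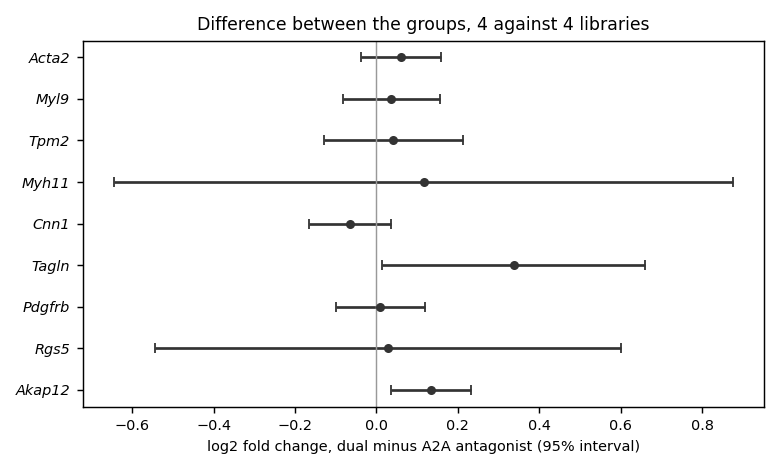
Differences between the dual and the A2A antagonist groups on the log2 scale, with 95% intervals from edgeR's quasi-likelihood fit of 4 against 4 libraries, for the 9 tested genes (Des is left out for its low counts). Only the intervals of Tagln and Akap12 lie above 0 before adjustment, and those of Myh11 and Rgs5 are the widest.

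Counted over the set, none of the 9 tested genes passed an adjusted p under 0.05 (edgeR's quasi-likelihood test with Benjamini-Hochberg adjustment), where 39 of 18756 genes (0.208%) did. At an unadjusted p under 0.05 there were 2, Tagln and Akap12, against 12.8% of all genes tested (5.98% with the dual group higher, as both were here, and 6.81% with it lower). DESeq2 also called none after adjustment and 2 without it. The 2 became 1 when any of A2A antagonist replicates 2, 3 and 4 or dual replicates 1 and 2 was left out. The difference was above 0 for 8 of the 9, against 51.5% of all genes, and the median was 0.041 on the log2 scale, against 0.0038 over all genes. The groups overlapped for each of the 10. Among all genes, 7.42% had groups that did not overlap (3.36% with the dual group higher and 4.06% with it lower). The 8 positive values are not independent, because several genes were highest in the same library. Without dual replicate 1, the difference was above 0 for 4 of the 9 and the median was -0.0071. It was above 0 for 5 without A2A antagonist replicate 1 or 3, for 6 without dual replicate 4 and for 7 without dual replicate 3. Leaving out any other library kept it at 8.

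Some libraries stood apart for several of the genes. Dual replicate 1 was the highest of the 8 libraries for 5 of the 10 genes, Myl9, Tpm2, Pdgfrb, Rgs5 and Akap12, and A2A antagonist replicate 3 was the lowest for 4, Acta2, Myl9, Des and Myh11. For Rgs5 the lead was slight, with 0.858 CPM (28 counts) against 0.850 CPM (39 counts) in dual replicate 3. Des and Myh11 had 0 and 10 counts in A2A antagonist replicate 3, so the extremes of these 3 genes rest on few counts. The 10 genes summed to 858 CPM in dual replicate 1 and to between 718 and 801 CPM in the others. Akap12 made up most of this sum. Without it the sums were 270 ± 10.8 CPM in the A2A antagonist group and 276 ± 16.6 CPM in the dual group (SD, n = 4 each). Of the other lists given here, the sum of the other smooth muscle genes was highest in dual replicate 1 (2420 CPM) and lowest in A2A antagonist replicate 3 (2262 CPM). The sum of the PDGF genes was highest in dual replicate 1 too (364 CPM). The remaining lists peaked in other libraries, except for the markers of meningeal fibroblasts, the cells of the brain coverings. The sum of these markers was also highest in dual replicate 1, but not lowest in A2A antagonist replicate 3. This summed level was 3606, 4018, 3740 and 3513 CPM in the A2A antagonist group and 4477, 3620, 4092 and 3897 CPM in the dual group. It was highest in dual replicate 1 and lowest in A2A antagonist replicate 4, the libraries where Akap12 was highest and lowest. The single markers did not all follow the sum. Col3a1 and Fn1 were highest in dual replicate 1, but Dcn was highest in dual replicate 3, and Lum and Col15a1 in dual replicate 2. Aldh1a2 was at its lowest in dual replicate 1 (36.2 CPM). None of the 11 markers was at 0 in all libraries, and their median difference was 0.10 on the log2 scale, with 9 of 11 higher in the dual group and none past the adjusted threshold (0.208% of all genes were), although Fn1 passed with no low-count filter (edgeR with Benjamini-Hochberg adjusted p = 0.0254). Fn1, a matrix glycoprotein, stood at 83.0 ± 5.38 and 91.9 ± 7.27 FPKM, and Dcn, the proteoglycan decorin, at 91.6 ± 5.40 and 99.0 ± 8.05 FPKM in the A2A antagonist and dual groups (SD, n = 4 each). The part of these cells in the Akap12 value was not tested.

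**Figure D4:**
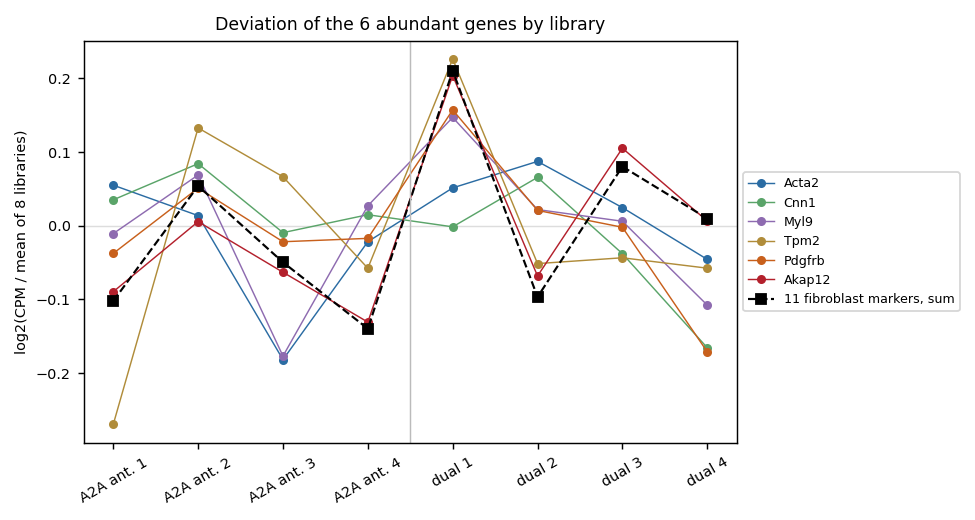
Deviation of each library from the mean of the 8 libraries, on the log2 scale, for the 6 abundant genes and for the summed meningeal fibroblast markers (dashed). Lines only link the points of 1 gene. Akap12 and the sum of the fibroblast markers are highest in dual replicate 1 and lowest in A2A antagonist replicate 4, whereas Acta2 and Cnn1 do not peak in dual replicate 1.

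The other genes of the same families were then examined. Of 13 non-muscle relatives, all tested, none passed the adjusted threshold (0.208% of all genes did), 5 were on the higher and 8 on the lower side with both ligands, and the median was -0.0080 on the log2 scale. The list includes Tpm1 and Tpm3, which muscle cells use as well. By level, Actb (680 FPKM as a mean of 8 libraries), Vim (645 FPKM), Cnn3 (358 FPKM) and Actg1 (251 FPKM) led, followed by Tpm4 (156 FPKM), Tagln2 (63.3 FPKM), Myh9 (49.5 FPKM), Myh10 (41.1 FPKM), Tpm1 (39.4 FPKM), Cnn2 (36.3 FPKM), Tpm3 (31.8 FPKM), Myl12a (22.3 FPKM) and Myl12b (1.97 FPKM). For actin, transgelin, calponin, tropomyosin and myosin heavy chains the RNA of a non-muscle form was thus the most abundant of its family. Tagln2 had the largest difference of the 13, at -0.12 on the log2 scale (SE 0.034, edgeR with Benjamini-Hochberg adjusted p = 0.146). Of a list of 8 relatives, mainly of striated and enteric muscle, 4 could be tested, Actg2, Tagln3, Myl6 and Mylpf, and none passed. Tagln3 is known from neurons and Myl6 from smooth muscle and non-muscle cells, so among these 4 the name of the list holds for Actg2 and Mylpf only. The median was -0.048 on the log2 scale and turned to 0.033 without A2A antagonist replicate 2.

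Among 17 other genes of the smooth muscle apparatus, 11 differences were positive and 6 negative, none passed, and the median was 0.029 on the log2 scale. The 3 most abundant were actin cross-linkers and scaffolds that non-muscle cells share, Flna at 84.5 ± 1.39 FPKM, Csrp1 at 54.4 ± 2.24 FPKM and Actn1 at 46.7 ± 0.871 FPKM in the A2A antagonist group (SD, n = 4 each). The other 12 genes between these and the lowest pair had means from 0.807 FPKM (Itga8) to 42.9 FPKM (Cald1, caldesmon) in that group. The lowest of the 17 were Ppp1r14a and Pdlim3. Ppp1r14a, the inhibitor of myosin phosphatase, was at 0.294 ± 0.0980 FPKM and 0.185 ± 0.0345 FPKM in the A2A antagonist and dual groups, and Pdlim3 at 0.0552 ± 0.00834 FPKM and 0.0745 ± 0.0260 FPKM (SD, n = 4 each).

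Among regulators of the contractile programme, Srf was at 18.2 ± 1.40 FPKM and 20.02 ± 0.841 FPKM in the A2A antagonist and dual groups (SD, n = 4 each), a difference of 0.14 on the log2 scale (SE 0.051, edgeR with Benjamini-Hochberg adjusted p = 0.236). Its widely expressed cofactor Mkl1 was at 7.002 ± 0.498 FPKM and 6.92 ± 0.373 FPKM (SD, n = 4 each). Myocd, the muscle-restricted cofactor myocardin, was at 0.00896 FPKM and 0.0151 FPKM and did not pass the filter. None of the 7 regulators tested passed the adjusted threshold, 5 lay higher and 2 lower, and the median was 0.035 on the log2 scale.

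For the pericyte side, 16 further pericyte genes were listed, of which 13 were tested and none passed. The difference was above 0 for 9 and below 0 for 4, with a median of 0.062 on the log2 scale. Some of the listed genes were at or near 0. Kcnj8 and Abcc9, the subunits of the pericyte potassium channel, were at 0.0503 and 0.00142 FPKM in the A2A antagonist group and at 0.0562 and 0.00585 FPKM in the dual group, and Higd1b was at 0.124 and 0.189 FPKM. Genes shared with other cells were present, such as Ifitm1, an interferon-induced gene, at 184 ± 17.7 and 179 ± 17.7 FPKM, and the transcription factors Foxc1, at 15.1 ± 1.34 and 15.8 ± 1.16 FPKM, and Zic1, at 13.1 ± 0.735 and 14.1 ± 1.48 FPKM (SD, n = 4 each). The proteoglycan gene Cspg4, also used by oligodendrocyte precursors, was at 3.67 ± 0.121 and 4.02 ± 0.254 FPKM, and Notch3, a receptor of mural cells, at 7.99 ± 0.214 and 8.74 ± 1.14 FPKM (SD, n = 4 each). The name mural cell genes is therefore used for what these genes are known for. Myh11, Des, Rgs5, Kcnj8, Abcc9 and Higd1b were each below 1 FPKM in every library, as were Ndufa4l2 and Atp13a5 of the same list of 16. The rest of that list was above 1 FPKM in every library. Its genes without a value so far were Foxd1 (8.25 FPKM as a mean of 8 libraries), Tbx18 (4.98 FPKM), Mcam (4.79 FPKM), Cox4i2 (1.94 FPKM), Anpep (1.69 FPKM) and Vtn (1.37 FPKM). The level of mural cell RNA thus differed by the marker chosen.

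The partners of the receptor and of the scaffold completed the picture. Of 6 genes of PDGF ligands and receptors other than Pdgfrb, none passed, 2 lay higher and 4 lower, and the median was -0.0059 on the log2 scale (between -0.033 and 0.0098 when each library was left out). Pdgfb, the ligand that Pdgfrb answers, was at 7.77 ± 0.377 FPKM and 6.82 ± 1.15 FPKM (SD, n = 4 each), a difference of -0.20 on the log2 scale (SE 0.082, edgeR with Benjamini-Hochberg adjusted p = 0.314). Pdgfc, a ligand of Pdgfra, differed by 0.13 (SE 0.054, edgeR with Benjamini-Hochberg adjusted p = 0.309). Of the other RGS genes, 9 of 10 were tested, 8 lay higher and 1 lower, none passed, and the median was 0.063. Of 14 genes for kinase subunits, a receptor and other anchors related to Akap12, 12 lay higher and 2 lower, none passed, and the median was 0.058. In that list Akap12 itself stood 5.56 ± 0.501 times above Akap11 and 4.19 ± 0.439 times above Akap8 in FPKM (SD, n = 8), while the regulatory subunit Prkar1a, at 96.4 ± 0.749 FPKM in the A2A antagonist group, was higher than Akap12. In 3 of the 14 the groups did not overlap, against 7.42% of all genes. The largest difference was that of Akap5, a neuronal anchor of low level, at 0.48 (SE 0.16, edgeR with Benjamini-Hochberg adjusted p = 0.192). The lowest adjusted p was that of Akap9, which differed by 0.17 (SE 0.038, edgeR with Benjamini-Hochberg adjusted p = 0.0606). With no low-count filter Akap9 passed (edgeR with Benjamini-Hochberg adjusted p = 0.0133). At an unadjusted p under 0.05 in edgeR's test there were 5 of the 14, against 12.8% of all genes.

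Markers of the other cell types bear on how these values are read. Of 12 microglia markers 1 passed, C1qa, a complement subunit, which fell by 0.24 on the log2 scale (SE 0.040, edgeR with Benjamini-Hochberg adjusted p = 0.0240, 0.208% of all genes passing). It stood at 455 ± 29.0 FPKM and 384 ± 11.1 FPKM in the A2A antagonist and dual groups (SD, n = 4 each). Without A2A antagonist replicate 4 or dual replicate 3 no gene was called, C1qa included, and with no low-count filter 4 of the 12 passed, all of them lower in the dual group (Aif1, C1qa, C1qb and Fcrls). The list did not move one way. Of the 12 markers 5 had a positive and 7 a negative difference, with a median of -0.021 on the log2 scale, and the groups did not overlap for 4, against 7.42% of all genes. Of those 4, Csf1r, the receptor that microglia need to survive, was the one on the higher side (0.11 on the log2 scale, SE 0.034, edgeR with Benjamini-Hochberg adjusted p = 0.171). None of 8 astrocyte, 6 endothelial and 8 oligodendrocyte markers tested passed. Their medians were 0.023, 0.020 and -0.048 on the log2 scale, of which the endothelial one was -0.0049 without dual replicate 1 and the oligodendrocyte one -0.12 without dual replicate 3. Gfap, the astrocyte filament gene, was at 386 ± 14.2 and 394 ± 19.5 FPKM, and Cdh5, the endothelial cadherin, at 7.92 ± 1.03 and 8.46 ± 0.899 FPKM (SD, n = 4 each).

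The second deposited table adds a control group, activated cells without a ligand, of which only the authors' mean is used here. That mean rests on 3 libraries that are not samples of this series, and their single values were not used here, so neither an error nor a test is given, and the A2A antagonist libraries behind it are the same as above. The groups differ in ligand and in series at once, and these cannot be told apart in the means. The values are normalised counts. The authors' mean of Akap12 was 58124 in the control and 20181 in the A2A antagonist group. For Acta2 it was 6361 and 3769, for Pdgfrb 5774 and 3377, and for Tpm2 1427 and 765, each in the same order. These 4 genes had the widest gaps among the genes that were not of low count. Myl9 was at 1944 and 1743, Tagln at 197 and 140, and Cnn1, the exception, at 1725 and 1811. The genes of low count were at 37.9 and 30.7 (Rgs5), 21.0 and 19.2 (Myh11) and 4.64 and 3.01 (Des). The mean was lower in the A2A antagonist group for 9 of the 10 genes and for 8 of the 9 tested, against 46.7% of all genes tested.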

How the data were processed

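Poly(A) RNA of 8 libraries was sequenced as paired ends. Per the study's methods and the submitters' processing notes, reads were aligned with HISAT2 to mm10 and counted per gene with featureCounts 1.5.0-p3. The deposited tables hold raw counts per gene and library, and the authors' FPKM values, which divide by gene length and depth. The second table also holds group means of normalised counts, a signal the authors scaled by size factors, and columns of the authors' own fold changes and p-values, which were not used. There, 9 columns of single control libraries belong to no sample of this series and were not used. Counts of the A2A antagonist libraries were identical in both tables over 30302 shared genes.

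Counts were filtered with filterByExpr (minimum count 10), scaled by TMM and tested with edgeR 4.0.16 (quasi-likelihood F-test, R 4.3.3) as dual against A2A antagonist over all 18756 genes that passed, with Benjamini-Hochberg adjustment and a threshold of 0.05. Alternatives were DESeq2 1.42.0, other scalings, no filter, a replicate block and leaving out each library. The scripts were checked on simulated counts. Coordinates are those of the deposited tables. Exon overlaps and shared 31-base words came from GENCODE M21 on GRCm38, where 9 of the 10 genes have the same start and end and Acta2 ends at 34255590.

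The 10 genes, the gene lists and the tests were chosen with earlier results of these data known. All 10 genes and all 13 non-muscle relatives were named. Of each other list the called genes, the 3 with the highest FPKM and up to 2 with the largest difference could be named. Gm48529, Pcsk7, Mylpf, Itga8, Cald1, Aif1, Akap9, Akap11, Cspg4, Notch3, Myocd, Kcnj8, Abcc9 and Higd1b were named outside this rule after their values were seen. The same holds for Aldh1a2, Foxd1, Mcam, Cox4i2, Anpep, Vtn and Atp13a5.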

Additional observations from a re-analysis of the deposited data

Results flagged for a closer look

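In 3 of 20 groups of 4 libraries, 1 library stood farther from the others than Dixon's criterion allows, where chance gives about 1 in 20. All 3 were in the dual group. For Tagln, dual replicate 2 (194 counts, 5.10 CPM) lay above the others, with a gap of 0.860 of the range of its group. The limit from the antisense gene Gm48529 applies to that value. For Tpm2, dual replicate 1 (688 counts, 21.1 CPM) lay above the others, with a gap of 0.955 of the range, and the other 3 libraries spanned only 17.3 to 17.5 CPM. For Rgs5, dual replicate 2 (14 counts, 0.368 CPM) lay below the others, with a gap of 0.952 of the range. Counting error alone gives a coefficient of variation of 18.4% at the mean count of Rgs5 in that group, and the measured one was 1.79 times as large.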

How the results depend on the processing

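The number of genes called between the dual and A2A antagonist groups depended on the settings. It was 39 in the fit reported, 366 with no low-count filter, 417 with DESeq2, and 0 to 172 when each library was left out in turn (0 without A2A antagonist replicate 4 or dual replicate 3, 5 without A2A antagonist replicate 2, 6 without A2A antagonist replicate 3, and 172 without A2A antagonist replicate 1). None of the 10 genes was called under any of these settings, with a count of 0 to 0 over the left-out libraries, and DESeq2 gave an adjusted p for 6 of them. With no low-count filter 7 genes of the other lists were called, namely Aif1, C1qa, C1qb, Fcrls, Fn1, Olig1 and Akap9. The median difference of the set ranged from -0.0071 to 0.068 on the log2 scale when each library was left out, and was 0.038 to 0.052 under the other settings. Leaving out single libraries turned the direction of Myh11 (-0.17 to 0.50 on the log2 scale), Myl9 (-0.012 to 0.077), Pdgfrb (-0.044 to 0.064), Rgs5 (-0.063 to 0.24) and Tpm2 (-0.031 to 0.098), none of which had passed the test. Acta2 (0.013 to 0.089), Tagln (0.21 to 0.46), Akap12 (0.084 to 0.18) and Cnn1 (-0.10 to -0.023) kept theirs. The cause was not tested. With the replicate number as a block, 17 genes were called and Rgs5 was at -0.00048 on the log2 scale (edgeR with Benjamini-Hochberg adjusted p = 0.999). The numbers did not pair the libraries, since deviations of same-numbered libraries correlated at 0.021, -0.053, 0.041 and -0.011 over genes, and 1 of 4 A2A antagonist libraries correlated best with its own number. Depth limits Des, Myh11 and Rgs5, at most 39 counts in a library, and the shared bases of Tagln limit its level.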
